A study of Arabidopsis thaliana with 12 samples.

Results

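The transcripts described here belong to 43 genes of sulfur nutrition in Arabidopsis, out of 27827 genes with a probe set each on the array. The genes comprised 12 SULTR sulfate transporters, 22 enzymes that carry sulfate to cysteine, glutathione and activated sulfate, and 9 genes known as markers of sulfur deficiency. The transporters and enzymes were taken by gene name, with earlier results of these data known, and all 43 genes had a probe set. *CYSC1*, *CYSD1*, *CYSD2* and *DES1*, relatives of the cysteine synthases, were left out and stand in a list of other sulfur genes. The 9 deficiency genes had been gathered with the values of these same arrays in view, most of all the contrast of *dcl1–9* with WT in light, so they are described below with no test. Total RNA of mature leaves was measured on 12 arrays, 3 biological replicates in each of 4 groups, to follow how leaves respond to sudden darkness when *DCL1*, the nuclease that cuts miRNAs out of their precursors, is impaired. True leaves number 5 to 7 of plants aged 4 to 5 weeks, raised at a 12 h photoperiod, were detached and floated on water for 6 h at 22 °C either in light or in the dark, starting 2 h after the lights came on. WT plants were Columbia-0, and the *dcl1–9* mutation, first found in the Wassilewskija accession, had been crossed back 5 times into that background. All values therefore come from cut leaves on water, and the mutant is represented by 1 allele. The study calls the biological replicates independent without saying how they were taken, so the tests measure the spread between these arrays, which may be partly technical.

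Plants take up sulfate through SULTR transporters of the plasma membrane, store it in the vacuole and release it again through the SULTR4 members. ATP sulfurylase (APS) activates sulfate to adenosine phosphosulfate, which APS reductase (APR) and sulfite reductase reduce to sulfide in plastids. Sulfide is built into cysteine with O-acetylserine made by serine acetyltransferases (SERAT), and cysteine feeds glutathione. In a side branch APS kinase (APK) makes activated sulfate for sulfated products such as glucosinolates. When sulfate runs short, plants raise uptake, vacuole release and APR, induce SDI and LSU genes, and make miR395, which cuts *APS1*, *APS3*, *APS4* and *SULTR2;1* transcripts.

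Each level below is a hybridization intensity in arbitrary units, comparable between arrays for 1 gene but not between genes. The median intensity of the 12 arrays lay between 30 and 34.5, and no pair of arrays held identical values. In light the intensity of *DCL1* was 19.97 ± 2.48 in WT and 42.2 ± 5.91 in *dcl1–9* (SD, n = 3), and in darkness it was 23.7 ± 2.70 and 61.1 ± 8.45. Which part of the transcript these probes cover is not given, so that level does not check the mutation. Of the markers used to check the tissue, the 4 mesophyll genes gave summed intensities of 4385.5 to 5194.4 in WT dark and of 5530.6 to 7317.8 in the other groups. The guard cell sum of 3 genes was 291.7 to 511.0 in *dcl1–9* light against 163.4 to 307.0 in WT light, and 237.8 to 319.9 in *dcl1–9* dark against 164.6 to 238.3 in WT dark. The root hair sum of 3 genes, for a cell type that leaves lack, was 31.9 to 102.2, with 2 of the 3 under a mean of 20 in each group. The floral sum of 3 genes was 59.4 to 119.6 in WT dark and 24.4 to 36.9 in the other groups, through the petal and stamen identity gene *PI*. The part of these differences between groups in the results below was not tested. In whole leaves fewer cells of a type and less RNA per cell cannot be told apart.

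Of the 9 sulfur deficiency genes, 7 stood higher in *dcl1–9* leaves in light than in any other group, as the plot of their levels by array shows. Those 7 are *SDI1* (AT5G48850), *SDI2* (AT1G04770), *LSU1* (AT3G49580), *LSU2* (AT5G24660), *BGLU28* (AT2G44460), *SHM7* (AT1G36370) and *GGCT2;1* (AT5G26220), and for each of them all 3 *dcl1–9* light arrays lay above all 3 WT light arrays. Such a full separation upwards was found for 13.2% of all probe sets in this contrast, and the genes were chosen partly on it. The genotype differences are given on the log2 scale as the distance from the median over all probe sets, -0.14 in light and -0.12 in darkness, and their SE and p belong to the difference before that shift. Folds between genotypes are likewise taken after the shift, so they differ from the ratios of the printed intensities. Of all 27827 probe sets, *BGLU28* had the largest light difference and *SDI1* the next, both over WT intensities whose height above background was not assessed. *LSU1* ranked 5, *GGCT2;1* ranked 9, *SHM7* ranked 16, *SDI2* ranked 46 and *LSU2* ranked 1080 from the top. These ranks come from the contrast on which the genes were partly chosen, so high ranks were partly fixed in advance. Over the 9 genes the light difference had a median of 2.91 and a range of 0.01 to 5.77.

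**Figure D1:**
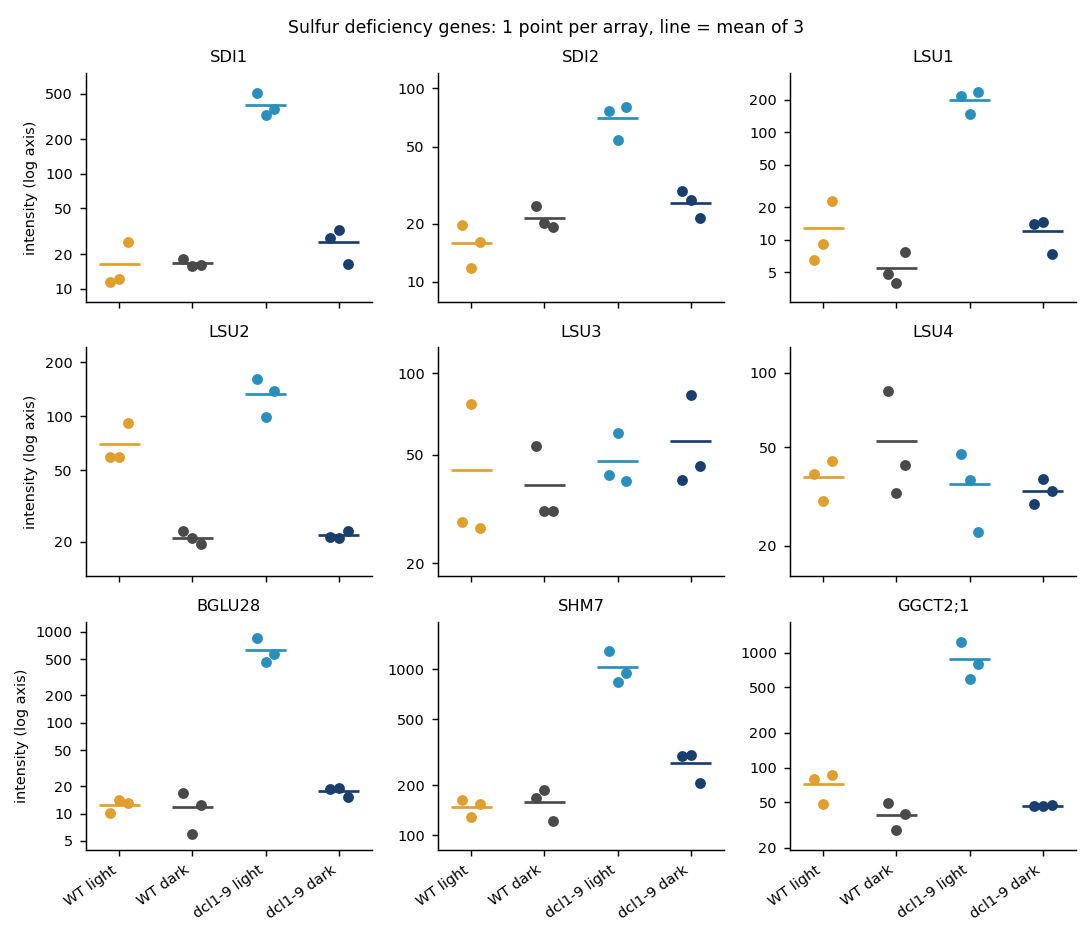
Intensity of the 9 sulfur deficiency genes in each of the 12 arrays (vertical log axis, arbitrary units) by group, with 1 point per array and a line at the mean of 3. In all, 7 genes are high in the 3 *dcl1–9* light arrays, whereas *LSU3* and *LSU4* overlap between all groups and *LSU2* is also higher in WT light than in WT dark.

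*SDI1* and *SDI2* encode repressors that hold back glucosinolate synthesis when sulfur is short. The intensity of *SDI1* was 11.5, 12.2 and 25.4 in WT light, 17.99, 15.9 and 16.2 in WT dark, 502, 328 and 365 in *dcl1–9* light, and 27.6, 32.7 and 16.4 in *dcl1–9* dark. It was thus low in 9 of the 12 arrays, and replicate 3 was the highest of the WT light arrays. The light difference was 4.81 (SE 0.30) and the dark difference 0.68 (SE 0.30). The intensity of *SDI2* was 19.6, 11.9 and 16.04 in WT light, 24.8, 20.1 and 19.3 in WT dark, 76.7, 54.3 and 79.8 in *dcl1–9* light, and 29.5, 26.4 and 21.3 in *dcl1–9* dark. This was a smaller excess of the same outline, with a light difference of 2.30 (SE 0.23) and 0.39 (SE 0.23) in darkness.

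The LSU genes encode small proteins that accumulate on low sulfur, and they sit as adjacent pairs in the genome, *LSU1* beside *LSU3* (AT3G49570) and *LSU2* beside *LSU4* (AT5G24655). The intensity of *LSU1* was 6.45, 9.08 and 23.1 in WT light, 4.77, 3.97 and 7.74 in WT dark, 219, 149 and 236 in *dcl1–9* light, and 14.0, 14.7 and 7.29 in *dcl1–9* dark. *LSU1* was close to the bottom of the scale in WT, where replicate 3 in light was again the highest, and its light difference was 4.30 (SE 0.42). The intensity of *LSU2* was 59.1, 59.2 and 92.2 in WT light, 22.9, 21.1 and 19.4 in WT dark, 161, 98.7 and 138 in *dcl1–9* light, and 21.4, 21.0 and 23.0 in *dcl1–9* dark. *LSU2* differed from the others in that WT light arrays also lay above both dark groups, with a light difference of only 1.06 (SE 0.21) and dark groups that overlapped. The neighbours did not share these patterns. *LSU3* had intensities of 28.4, 76.8 and 26.9 in WT light, 53.9, 31.1 and 31.1 in WT dark, 42.1, 60.3 and 40.1 in *dcl1–9* light, and 40.5, 82.8 and 45.5 in *dcl1–9* dark. *LSU4* had intensities of 38.8, 30.3 and 44.0 in WT light, 84.1, 32.7 and 42.4 in WT dark, 47.0, 37.0 and 22.6 in *dcl1–9* light, and 29.5, 37.2 and 33.1 in *dcl1–9* dark. Arrays of all groups overlapped for both, with light differences of 0.40 (SE 0.38) and 0.01 (SE 0.32).

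*BGLU28* encodes a beta-glucosidase, a myrosinase type thought to free sulfur from glucosinolates. Its intensity was 10.3, 14.2 and 13.0 in WT light, 16.9, 5.93 and 12.5 in WT dark, 862, 472 and 567 in *dcl1–9* light, and 18.6, 19.3 and 15.2 in *dcl1–9* dark, so that the lowest *dcl1–9* light array, at 472, lay above the highest of the other 9, at 19.3. The light difference was 5.77 (SE 0.32) and the dark difference 0.83 (SE 0.32), and with WT at this level the first gives no exact fold. *GGCT2;1* encodes a gamma-glutamyl cyclotransferase that breaks down glutathione in the cytosol. Its intensity was 79.0, 48.4 and 86.2 in WT light, 48.7, 28.5 and 39.5 in WT dark, 1243, 592 and 801 in *dcl1–9* light, and 45.9, 46.3 and 47.5 in *dcl1–9* dark, with a light difference of 3.74 (SE 0.27). The dark arrays of the mutant lay within the range of WT dark. *SHM7* belongs to the serine hydroxymethyltransferase family, and its intensity was 165, 129 and 155 in WT light, 167, 188 and 122 in WT dark, 1292, 839 and 958 in *dcl1–9* light, and 300, 307 and 207 in *dcl1–9* dark. It was the only one of the 9 whose *dcl1–9* arrays lay above WT in both conditions, at 2.91 (SE 0.21) in light and 0.89 (SE 0.21) in darkness, beside 13.0% of all probe sets with full separation upwards in darkness.

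From light to dark, all *dcl1–9* arrays were lower for the 7 genes, and for none were all higher, beside 19.6% and 19.7% of all probe sets, with log2 differences of -5.13 (SE 0.32) for *BGLU28*, -4.17 (SE 0.27) for *GGCT2;1*, -4.11 (SE 0.42) for *LSU1* and -3.99 (SE 0.30) for *SDI1*. *LSU2*, *SHM7* and *SDI2* followed at -2.58 (SE 0.21), -1.92 (SE 0.21) and -1.44 (SE 0.23). These falls start from the same *dcl1–9* light arrays on which the genes were partly chosen. Their direction and the full separation were therefore partly fixed in advance. In WT full separation downwards was seen for *LSU2* alone, at -1.70 (SE 0.21), beside 18.3% of all probe sets. The other 8 overlapped there, with differences between -1.07 for *LSU1* and 0.45 for *SDI2*. The mutant response minus that of WT was -4.93 (SE 0.46) for *BGLU28*, -4.12 (SE 0.43) for *SDI1* and -3.31 (SE 0.39) for *GGCT2;1*, values that use the *dcl1–9* light arrays on which the genes were chosen. It was 0.25 (SE 0.54) for *LSU3* and -0.43 (SE 0.45) for *LSU4*, within their SE.

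Among the *dcl1–9* light arrays, replicate 1 was the highest for 6 of the 9 genes and replicate 2 the lowest for 7. For the 34 transporters and enzymes the same replicate 1 was the highest for 17 and the lowest for 13, and replicate 2 was also the lowest for 13. With any 1 of the 12 arrays left out, the light difference stayed between 5.46 and 5.97 for *BGLU28*, 4.57 and 5.19 for *SDI1*, 3.90 and 4.84 for *LSU1*, 3.39 and 4.00 for *GGCT2;1*, 2.67 and 3.05 for *SHM7*, and 2.07 and 2.48 for *SDI2*. *BGLU28*, *SDI1*, *LSU1* and *SDI2* had mean intensities under 22 in both WT groups, where a ratio depends on the offset. With 16 added to each value before log2, the light difference before the shift went from 5.63 to 4.47 for *BGLU28*, from 4.68 to 3.68 for *SDI1*, from 4.16 to 2.93 for *LSU1* and from 2.16 to 1.43 for *SDI2*. *LSU2* and *LSU1* moved likewise in the *dcl1–9* dark response, from -2.58 to -1.95 and from -4.11 to -2.94.

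The 34 transporters and enzymes were tested with limma over all probe sets at an adjusted p under 0.05. In light 12 of them differed between genotypes, 9 higher and 3 lower in *dcl1–9*, beside 9.25% of all probe sets (5.92% higher and 3.33% lower). In darkness 5 differed, 4 higher and 1 lower, beside 7.46% of all (4.45% and 3.02%). Darkness changed 15 of the 34 in WT, 1 upwards and 14 downwards, beside 27.4% of all (12.8% and 14.5%). In *dcl1–9* it changed 16, 2 upwards and 14 downwards, beside 23.7% of all (10.8% and 12.9%). The median difference of the 34 was 0.11 in light and 0.19 in darkness between genotypes, where all probe sets have 0 by construction. For the dark responses it was -0.35 in WT and -0.38 in *dcl1–9*, beside 0.06 for all probe sets in both. After quantile normalization the light count was 9 higher and 5 lower, and the count for darkness in *dcl1–9* was 4 higher and 13 lower. Intensities averaged under 20 over the 12 arrays for 2 members, *SULTR1;3* (AT1G22150) and *SULTR3;5* (AT5G19600). When 1 array was left out, 11 of 15, 13 of 16, 9 of 12 and 2 of 5 calls were kept in every case, in WT dark, *dcl1–9* dark, light and darkness respectively, and those lost are named with their genes. Against a 1.2-fold change in place of no change the light calls of *SULTR2;1* (AT5G10180), *APR1* (AT4G04610), *APR2* (AT1G62180) and *APK1* (AT2G14750) and the dark genotype calls of *SULTR2;1*, *SULTR4;2* (AT3G12520) and *APR3* (AT4G21990) were lost. The same test ended the WT falls of *SULTR1;2* (AT1G78000), *SULTR2;1*, *SULTR4;1* (AT5G13550), *SULTR4;2* and *APS1* (AT3G22890), and in *dcl1–9* the fall of *APR2* and the rises of *SERAT3;1* (AT2G17640) and *APK4* (AT5G67520). The dark and genotype comparisons share groups of arrays, so their lists are not independent of each other. Calls gained when the replicate number was fitted as a block are named in the part on processing near the end.

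**Figure D2:**
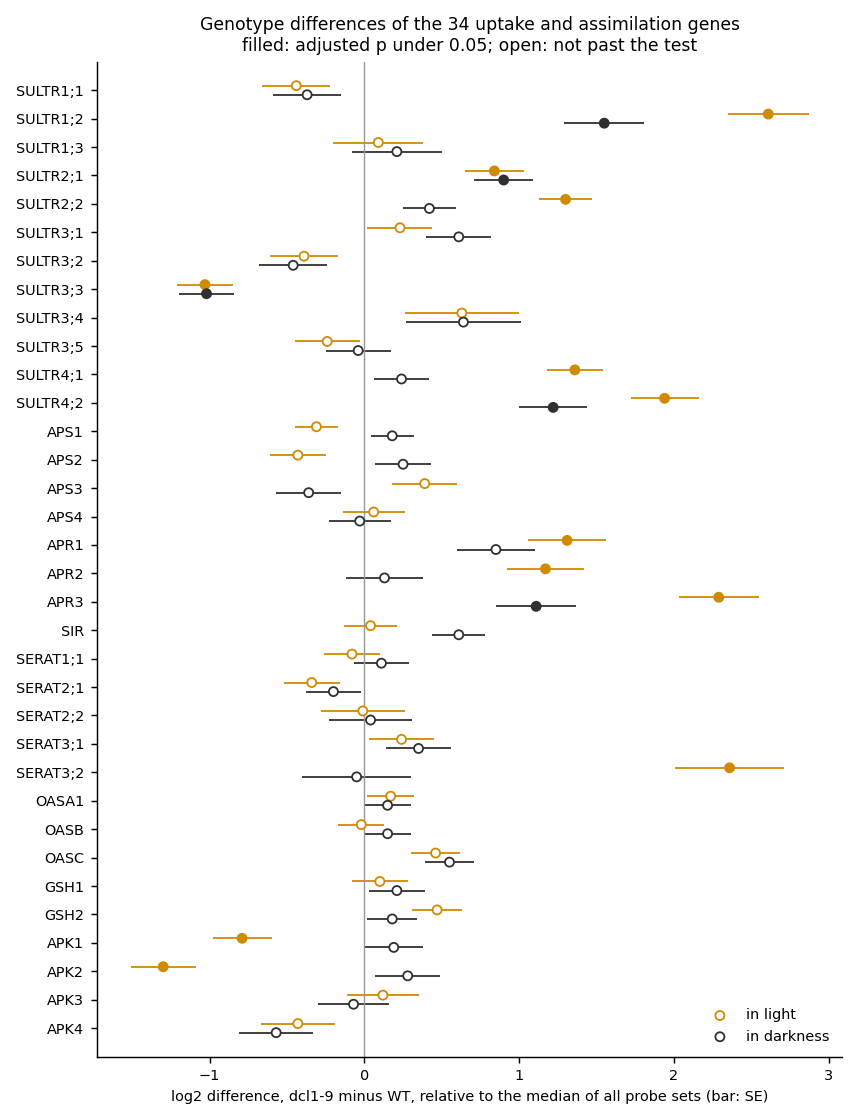
Log2 difference of *dcl1–9* minus WT for the 34 uptake and assimilation genes in light (orange) and in darkness (black), measured from the median over all probe sets, with bars of 1 SE. Filled points have an adjusted p under 0.05. The transporter *SULTR1;2* lies furthest to the right in light, at 2.61, and *APK2* furthest to the left, at -1.3.

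Of the 12 sulfate transporters, 5 were higher and 1 was lower in *dcl1–9* in light, beside 5.92% and 3.33% of all probe sets. In darkness 3 were higher and 1 lower, beside 4.45% and 3.02%. *SULTR1;2*, the main high affinity transporter for uptake by roots, showed the largest difference of the 34 genes in light. Its intensity was 36.2, 55.2 and 32.2 in WT light, 17.7, 28.3 and 23.5 in WT dark, 283, 169 and 229 in *dcl1–9* light, and 78.6, 58.8 and 49.3 in *dcl1–9* dark. All mutant arrays lay above all WT arrays in light, and again in darkness. The excess was 6.10-fold in light (log2 difference 2.61, SE 0.26, adjusted p = 1.2e-04) and 2.92-fold in darkness (log2 difference 1.55, SE 0.26, adjusted p = 0.0065). Transcripts of this transporter fell in the dark in *dcl1–9* (log2 difference -1.86, SE 0.26, adjusted p = 9.6e-05) and in WT (log2 difference -0.82, SE 0.26, adjusted p = 0.03). The WT fall was lost without WT light replicate 2 or WT dark replicates 1 or 3, with an adjusted p of up to 0.13, and with 16 added to the values.

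*SULTR4;1* and *SULTR4;2* export sulfate from the vacuole. The intensity of *SULTR4;1* was 58.0, 66.2 and 80.6 in WT light, 50.0, 52.1 and 39.2 in WT dark, 185, 136 and 156 in *dcl1–9* light, and 56.3, 49.9 and 46.3 in *dcl1–9* dark. In light the mutant arrays stood above all others (log2 difference 1.36, SE 0.18, adjusted p = 0.0021), whereas in darkness the genotypes overlapped (log2 difference 0.24, SE 0.18, adjusted p = 0.71). The transcript fell in the dark in *dcl1–9* (log2 difference -1.64, SE 0.18, adjusted p = 1.2e-05) and less in WT (log2 difference -0.53, SE 0.18, adjusted p = 0.041). The WT fall of this gene was lost when any of 6 arrays was left out, namely WT light replicates 2 and 3, WT dark replicates 1 and 3, *dcl1–9* light replicate 3 and *dcl1–9* dark replicate 2, with an adjusted p of up to 0.16, with no intensity trend and when only the compared groups were fitted. The intensity of *SULTR4;2* was 51.4, 39.6 and 50.0 in WT light, 23.5, 32.6 and 23.9 in WT dark, 202, 128 and 168 in *dcl1–9* light, and 65.5, 63.5 and 43.03 in *dcl1–9* dark. Here the mutant was higher in light (log2 difference 1.94, SE 0.22, adjusted p = 4.1e-04) and also in darkness (log2 difference 1.22, SE 0.22, adjusted p = 0.011), the latter lost without WT dark replicate 3 or *dcl1–9* dark replicates 1 or 2 (adjusted p up to 0.068). It fell in the dark in both genotypes, by 1.53 in *dcl1–9* (adjusted p = 1.2e-04) and by 0.82 in WT (adjusted p = 0.011).

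**Figure D3:**
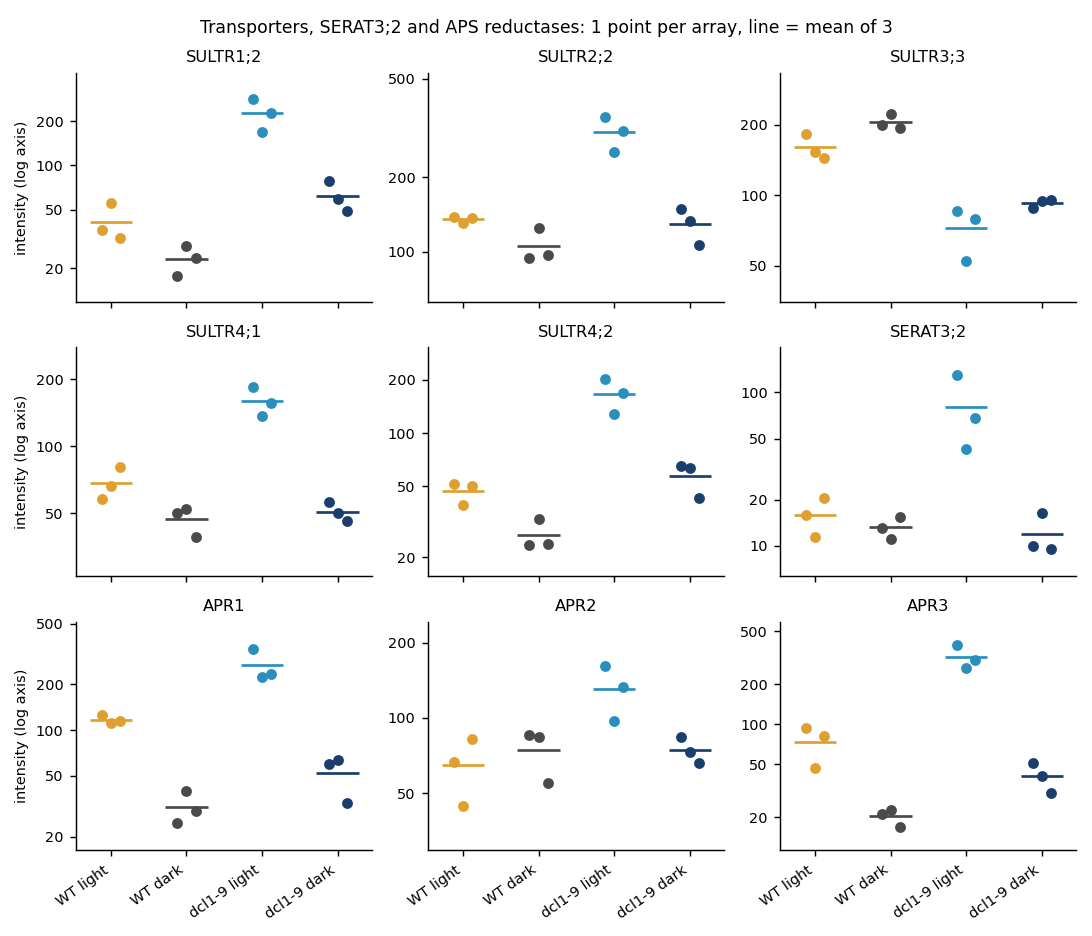
Intensity of 5 sulfate transporters, *SERAT3;2* and the 3 APS reductases in each array (vertical log axis, arbitrary units) by group, with 1 point per array and a line at the mean of 3. All but *SULTR3;3* are highest in *dcl1–9* light, and *SULTR3;3* is lower in both *dcl1–9* groups than in both WT groups.

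*SULTR2;2* (AT1G77990), a low affinity transporter of the vascular tissue, had intensities of 138, 131 and 137 in WT light, 94.2, 124 and 97.5 in WT dark, 352, 254 and 309 in *dcl1–9* light, and 149, 134 and 107 in *dcl1–9* dark. It was higher in *dcl1–9* in light (log2 difference 1.3, SE 0.17, adjusted p = 0.0019) and fell there in the dark (log2 difference -1.23, SE 0.17, adjusted p = 9.1e-05), while neither the WT dark response (adjusted p = 0.14) nor the genotypes in darkness (adjusted p = 0.28) passed the test. Phloem companion cell markers, for which 2 genes were summed, ranged from 242.0 to 436.7 in *dcl1–9* light and from 220.4 to 299.0 in WT light. The 2 genes did not go together. *SUC2* was 291 ± 123 in *dcl1–9* light and 168 ± 54.2 in WT light (SD, n = 3), with arrays that overlapped. *APL* was 77.0 ± 13.9 and 79.1 ± 9.90 in the same order. Their part in the differences of the vascular transporters was not tested.

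The SULTR3 group contains transporters of the chloroplast envelope and others of less settled place. *SULTR3;3* (AT1G23090) was lower in *dcl1–9* at both conditions, at 72.6 ± 17.5 against 161 ± 20.3 in light (log2 difference -1.03, SE 0.18, adjusted p = 0.0025) and at 92.8 ± 3.67 against 205 ± 14.7 in darkness (log2 difference -1.02, SE 0.18, adjusted p = 0.0026). Its dark response passed the test in neither genotype. *SULTR3;4* (AT3G15990), whose counterpart in rice distributes phosphorus to the grain, had intensities of 34.4, 77.0 and 45.5 in WT light, 10.8, 18.6 and 9.01 in WT dark, 125, 52.3 and 51.3 in *dcl1–9* light, and 22.1, 16.1 and 15.1 in *dcl1–9* dark. It fell in the dark in WT (log2 difference -2.02, SE 0.37, adjusted p = 7.8e-04) and in *dcl1–9* (log2 difference -1.99, SE 0.37, adjusted p = 0.0011) by similar values, and the genotypes did not differ past the test. With 16 added to the values these falls went from -2.02 to -1.21 in WT and from -1.99 to -1.36 in *dcl1–9*. Replicate 1 was the highest *dcl1–9* light array for this gene. The remaining 5 transporters, *SULTR1;1* (AT4G08620), *SULTR1;3*, *SULTR3;1* (AT3G51895), *SULTR3;2* (AT4G02700) and *SULTR3;5*, passed no test in any contrast, with genotype differences between -0.46 and 0.61. The rise of *SULTR3;1* in the dark in *dcl1–9* (log2 difference 0.56, SE 0.21, adjusted p = 0.062) did pass after quantile normalization (adjusted p = 0.025), with median centring (adjusted p = 0.040), with a minimum mean intensity of 20 (adjusted p = 0.045) and without replicate 2 of WT dark or of *dcl1–9* light or replicate 3 of *dcl1–9* dark (adjusted p of 0.031 to 0.047). *SULTR1;3* passed for darkness in WT without WT dark replicate 1 (adjusted p = 0.048). *SULTR1;1*, the other high affinity root transporter, was 40.5 ± 3.35 in WT light and 27.4 ± 4.88 in *dcl1–9* light (SD, n = 3). It was lower in every mutant array, as were 19.4% of all probe sets, with an adjusted p of 0.11.

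All 3 APR genes, which encode the enzyme regarded as the main control point of assimilation, had higher transcript levels in *dcl1–9* in light. Of all probe sets 5.92% were called higher there. The intensity of *APR3* was 94.2, 46.7 and 81.1 in WT light, 21.3, 22.6 and 16.98 in WT dark, 393, 264 and 303 in *dcl1–9* light, and 51.3, 40.7 and 30.6 in *dcl1–9* dark. Its excess in light was 4.90-fold (log2 difference 2.29, SE 0.26, adjusted p = 4.0e-04), and in darkness 2.16-fold (log2 difference 1.11, SE 0.26, adjusted p = 0.036). The latter was lost without WT dark replicates 1 or 3 or *dcl1–9* dark replicates 1 or 2 (adjusted p up to 0.17), with 16 added to the values and with no intensity trend in the variances. The intensity of *APR1* was 125, 111 and 115 in WT light, 24.4, 39.8 and 29.3 in WT dark, 344, 224 and 235 in *dcl1–9* light, and 60.2, 63.9 and 33.3 in *dcl1–9* dark. It was higher in light (log2 difference 1.31, SE 0.25, adjusted p = 0.014), which ended when WT light replicate 3 was left out (adjusted p = 0.053), and not past the test in darkness (adjusted p = 0.095), where it passed without *dcl1–9* dark replicate 3 (adjusted p = 0.020). *APR2* was 131 ± 32.0 in *dcl1–9* light against 64.6 ± 19.2 in WT light (log2 difference 1.17, SE 0.25, adjusted p = 0.023), which was lost without WT light replicate 2 or *dcl1–9* light replicates 1 or 3 (adjusted p up to 0.077) and when only the compared groups were fitted.

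Darkness lowered *APR1* and *APR3* strongly in both genotypes. *APR3* fell by 2.98 in *dcl1–9* (adjusted p = 1.4e-06), the deepest dark fall of the 34 genes in that genotype, and by 1.82 in WT (adjusted p = 1.0e-04). *APR1* fell by 2.38 and by 1.94 (adjusted p = 8.6e-06 and 4.3e-05). *APR2* fell in *dcl1–9* (log2 difference -0.79, SE 0.25, adjusted p = 0.032), against 0.23 (SE 0.25) in WT, which did not pass, and the difference between these responses was not past the test (adjusted p = 0.59). The mutant fall of *APR2* was lost without *dcl1–9* light replicates 1 or 3 or *dcl1–9* dark replicates 2 or 3 (adjusted p up to 0.14) and after quantile normalization. *SIR* (AT5G04590), the single sulfite reductase, fell in WT (log2 difference -0.75, SE 0.17, adjusted p = 0.004), whereas the value in *dcl1–9* was -0.16 (SE 0.17) with an adjusted p of 0.57. Its level in darkness was 263 ± 56.8 in WT and 367 ± 53.0 in *dcl1–9*, which did not pass the test (adjusted p = 0.095) except without WT dark replicate 2 (adjusted p = 0.044).

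Of the 5 serine acetyltransferases, *SERAT3;2* (AT4G35640) alone differed between genotypes past the test, beside 9.25% of all probe sets in light and 7.46% in darkness. *SERAT3;2* is a cytosolic form known to be induced on low sulfur. Its intensity was 15.96, 11.4 and 20.5 in WT light, 13.0, 11.04 and 15.5 in WT dark, 131, 42.8 and 68.5 in *dcl1–9* light, and 10.1, 16.3 and 9.56 in *dcl1–9* dark. The 3 mutant light arrays stood apart from the 9 others, with replicate 1 highest and replicate 2 lowest. The light excess was 5.15-fold (log2 difference 2.36, SE 0.35, adjusted p = 0.0028), and the transcript fell in the dark in *dcl1–9* (log2 difference -2.64, SE 0.35, adjusted p = 6.2e-05) against -0.25 (SE 0.35) in WT. The difference of these responses was the largest of the 34, at -2.40 (SE 0.50), and did not pass the test (adjusted p = 0.11), although it did without *dcl1–9* light replicate 2 (adjusted p = 0.036). With 16 added to the values the light difference before the shift went from 2.23 to 1.50 and the dark fall in *dcl1–9* from -2.64 to -1.69.

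*SERAT2;2* (AT3G13110), the mitochondrial form, behaved alike in the 2 genotypes by its values, with intensities of 93.8, 117 and 86.9 in WT light, 30.4, 27.4 and 20.1 in WT dark, 138, 76.4 and 67.0 in *dcl1–9* light, and 18.3, 28.8 and 26.4 in *dcl1–9* dark. It fell in the dark in WT (log2 difference -1.95, SE 0.27, adjusted p = 6.7e-05) and in *dcl1–9* (log2 difference -1.89, SE 0.27, adjusted p = 1.1e-04), and the genotype differences were -0.01 (SE 0.27) and 0.04 (SE 0.27). *SERAT3;1* rose in the dark in *dcl1–9* (log2 difference 0.71, SE 0.21, adjusted p = 0.025), against 0.58 (SE 0.21) in WT (adjusted p = 0.058, and 0.037 to 0.041 with a minimum mean intensity of 20 or without WT light replicate 3 or *dcl1–9* light replicate 1). This rise was lost without *dcl1–9* light replicates 1 or 2 or *dcl1–9* dark replicates 2 or 3 (adjusted p up to 0.12). *SERAT1;1* (AT5G56760) and *SERAT2;1* (AT1G55920) passed no test, with genotype differences of -0.34 to 0.11. Among the 3 O-acetylserine thiol lyases, which make cysteine, only the mitochondrial *OASC* (AT3G59760) passed the test. Its intensity was 64.9, 69.6 and 55.2 in WT light, 26.6, 30.2 and 24.6 in WT dark, 69.9, 89.4 and 77.2 in *dcl1–9* light, and 36.6, 37.0 and 35.2 in *dcl1–9* dark. It fell in the dark by close values in WT (log2 difference -1.22, SE 0.16, adjusted p = 4.9e-05) and in *dcl1–9* (log2 difference -1.11, SE 0.16, adjusted p = 1.4e-04), with no overlap between light and dark arrays. Its genotype difference in darkness passed after quantile normalization and with median centring (adjusted p = 0.042 and 0.045). The cytosolic *OASA1* (AT4G14880), the plastid *OASB* (AT2G43750) and both glutathione synthesis genes, *GSH1* (AT4G23100) and *GSH2* (AT5G27380), passed no test in any contrast. Their genotype differences ranged from -0.02 for *OASB* to 0.47 for *GSH2*, both in light. All dark arrays of *OASA1* lay above the light arrays in both genotypes (log2 difference 0.37, SE 0.15, adjusted p = 0.078 in WT, log2 difference 0.37, SE 0.15, adjusted p = 0.086 in *dcl1–9*). This rise passed after quantile normalization in WT and *dcl1–9* (adjusted p = 0.047 and 0.040), in *dcl1–9* with median centring (adjusted p = 0.040) and in WT without *dcl1–9* light replicate 1 (adjusted p = 0.039).

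In the sulfation branch 2 of the 4 APS kinases were lower in *dcl1–9* in light, *APK1* and *APK2* (AT4G39940), the main forms that supply sulfate for glucosinolates. Of all probe sets 3.33% were called lower in that contrast. The light difference was 0.12 (SE 0.23) for *APK3* (AT3G03900) and -0.43 (SE 0.24) for *APK4*, neither past the test (adjusted p = 0.97 and 0.14). The intensity of *APK1* was 280.4, 269 and 264 in WT light, 64.3, 74.9 and 46.6 in WT dark, 173, 134 and 126 in *dcl1–9* light, and 59.4, 72.2 and 60.6 in *dcl1–9* dark. All mutant arrays lay below WT in light, as for 19.4% of all probe sets (log2 difference -0.79, SE 0.19, adjusted p = 0.0096). The genotypes overlapped in darkness (log2 difference 0.19, adjusted p = 0.84). The intensity of *APK2* was 488, 591 and 538 in WT light, 87.1, 108 and 57.0 in WT dark, 207, 229.9 and 165 in *dcl1–9* light, and 82.0, 98.0 and 93.8 in *dcl1–9* dark. The mutant was 2.46-fold lower in light (log2 difference -1.3, SE 0.21, adjusted p = 0.0017) and not different past the test in darkness (adjusted p = 0.64).

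Both kinases fell in the dark, from the higher light level of WT to dark levels that overlapped those of the mutant. The fall of *APK2* was 2.72 in WT (adjusted p = 3.1e-07), the deepest of the 34 genes in that genotype, and 1.13 in *dcl1–9* (adjusted p = 9.9e-04). For *APK1* it was 2.16 and 1.16 (adjusted p = 8.6e-07 and 3.0e-04). The difference of the responses was 1.60 (SE 0.30) for *APK2*, just outside the test (adjusted p = 0.061), and 0.99 (SE 0.26) for *APK1* (adjusted p = 0.29). For *APK2* it passed with 16 added to the values (adjusted p = 0.029), with each array centred on its median (adjusted p = 0.049) and without WT dark replicate 2 (adjusted p = 0.025). It also passed with the replicate number fitted as a block (adjusted p = 0.013). *APK4* was the one transporter or enzyme called higher in the dark in both genotypes, in WT (log2 difference 0.98, SE 0.24, adjusted p = 0.0057) and in *dcl1–9* (log2 difference 0.86, SE 0.24, adjusted p = 0.016). *SULTR3;3*, *SERAT3;1* and *OASA1* also had all dark arrays above all light arrays in both genotypes, without a call in both. The mutant rise was lost without *dcl1–9* light replicates 1 or 3 or *dcl1–9* dark replicate 2 (adjusted p up to 0.073). The cytosolic *APK3* passed no test, although its dark response of -0.61 (SE 0.23) in *dcl1–9* did without *dcl1–9* light replicate 2.

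Of 4 genes from the list of other sulfur genes that carry or use activated sulfate, *SOT17* (AT1G18590) and *SOT18* (AT1G74090) were lower in *dcl1–9* in light, and *SOT16* (AT1G74100) and *PAPST1* (AT5G01500) were not. Of all probe sets 3.33% were called lower in that contrast. *SOT18*, a sulfotransferase of aliphatic glucosinolates, was 280.3, 313 and 239.7 in WT light, 36.6, 75.6 and 32.0 in WT dark, 126, 132 and 130.4 in *dcl1–9* light and 64.8, 77.7 and 64.0 in *dcl1–9* dark. It was lower in the mutant in light (log2 difference -0.96, SE 0.25, adjusted p = 0.017) and fell in the dark in WT (log2 difference -2.63, SE 0.25, adjusted p = 2.2e-06) and in *dcl1–9* (log2 difference -0.91, SE 0.25, adjusted p = 0.015). *SOT16*, a sulfotransferase of indole glucosinolates, had light levels that overlapped (log2 difference 0.15, SE 0.14, adjusted p = 0.95), and it fell in the dark in WT (log2 difference -0.83, SE 0.14, adjusted p = 4.0e-04) and in *dcl1–9* (log2 difference -0.43, SE 0.14, adjusted p = 0.04), the latter lost without WT light replicate 1 or any *dcl1–9* array (adjusted p up to 0.11) and with no intensity trend. *SOT17*, of the same type as *SOT18*, was lower in the mutant in light (log2 difference -0.77, SE 0.21, adjusted p = 0.019) and fell in the dark in WT (log2 difference -1.81, SE 0.21, adjusted p = 1.5e-05), with -0.29 (SE 0.21) in *dcl1–9*. *PAPST1*, a plastid carrier of activated sulfate, fell in the dark in WT by 1.73 (adjusted p = 1.8e-04), and its value in *dcl1–9* was -0.54 (SE 0.27), which did not pass (adjusted p = 0.17). Its genotype difference was -0.15 (SE 0.27) in light and 1.03 (SE 0.27) in darkness, the latter with all mutant arrays higher and short of the test (adjusted p = 0.055). The light call of *SOT17* was lost without WT light replicates 1 or 3 or *dcl1–9* light replicates 2 or 3 (adjusted p up to 0.077), and its fall in WT went from -1.81 to -0.94 with 16 added. For *SOT18* the light call was lost without *dcl1–9* light replicate 2 (adjusted p = 0.055) and the fall in *dcl1–9* without *dcl1–9* dark replicate 3 (adjusted p = 0.053). Those 2 calls of *SOT18*, the light call of *SOT17* and the *dcl1–9* fall of *SOT16* were also lost against a 1.2-fold change.

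Of the 4 transcripts that miR395 cuts, *SULTR2;1* alone was higher in *dcl1–9*, beside 5.92% of all probe sets in light and 4.45% in darkness. *SULTR2;1* is a low affinity transporter that moves sulfate through the vasculature, and its intensity was 112, 148 and 114 in WT light, 90.7, 101 and 61.1 in WT dark, 195, 224 and 184 in *dcl1–9* light, and 147, 135 and 144 in *dcl1–9* dark. The mutant arrays lay above WT in light (log2 difference 0.84, SE 0.19, adjusted p = 0.034) and in darkness (log2 difference 0.90, SE 0.19, adjusted p = 0.024). Both calls were narrow. The light call was lost without WT light replicates 1 or 3 or any of the 3 *dcl1–9* light arrays (adjusted p up to 0.12), with no intensity trend and when only the compared groups were fitted, and the dark call without WT dark replicate 3 or *dcl1–9* dark replicates 1 or 2 (adjusted p up to 0.10). Its fall in WT in the dark (log2 difference -0.58, SE 0.19, adjusted p = 0.032) was lost without WT light replicate 2 or WT dark replicate 3 (adjusted p up to 0.15) and when only the compared groups were fitted. Its value of -0.50 (SE 0.19) in *dcl1–9* passed in that last setting and without WT dark replicate 3 (adjusted p = 0.023 and 0.028).

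The 3 ATP sulfurylase targets did not stand higher in the mutant past the test. *APS1* had intensities of 474, 538 and 551 in WT light, 391, 416 and 305 in WT dark, 419, 364 and 364 in *dcl1–9* light, and 374, 370.2 and 401 in *dcl1–9* dark. Its values in *dcl1–9* light were all below those of WT light, as for 19.4% of all probe sets, but not past the test (log2 difference -0.31, SE 0.14, adjusted p = 0.057). They passed after quantile normalization (adjusted p = 0.042), with a minimum mean intensity of 20 (adjusted p = 0.043) and without WT dark replicate 3 (adjusted p = 0.037). *APS1* fell in the dark in WT (log2 difference -0.50, SE 0.14, adjusted p = 0.013), a fall lost without WT dark replicate 3 (adjusted p = 0.067). *APS3* (AT4G14680) had intensities of 142, 122 and 205 in WT light, 152, 150.2 and 107 in WT dark, 207, 165 and 175 in *dcl1–9* light, and 96.1, 83.0 and 112 in *dcl1–9* dark. It fell in the dark in *dcl1–9* (log2 difference -0.91, SE 0.21, adjusted p = 0.0043), and not past the test in WT (log2 difference -0.18, adjusted p = 0.59). *APS4* (AT5G43780) had intensities of 98.2, 135 and 86.2 in WT light, 127, 149.8 and 152 in WT dark, 81.7, 112 and 107 in *dcl1–9* light, and 100.3, 149 and 141 in *dcl1–9* dark, which overlapped in each comparison of groups, and passed no test except for darkness in WT without WT light replicate 2 (adjusted p = 0.035). *APS2* (AT1G19920), the isoform that miR395 does not cut, fell in the dark in WT (log2 difference -1.14, SE 0.18, adjusted p = 1.9e-04), while its value in *dcl1–9* was -0.43 (SE 0.18) and in light the genotypes differed by -0.43 (SE 0.18), short of the test (adjusted p = 0.057). This light difference passed after quantile normalization (adjusted p = 0.029), with 16 added, with a minimum mean intensity of 20 (adjusted p = 0.041) and without WT light replicate 2 or *dcl1–9* light replicate 3 (adjusted p = 0.044 and 0.030). The *dcl1–9* value passed without *dcl1–9* light replicate 1 (adjusted p = 0.029).

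**Figure D4:**
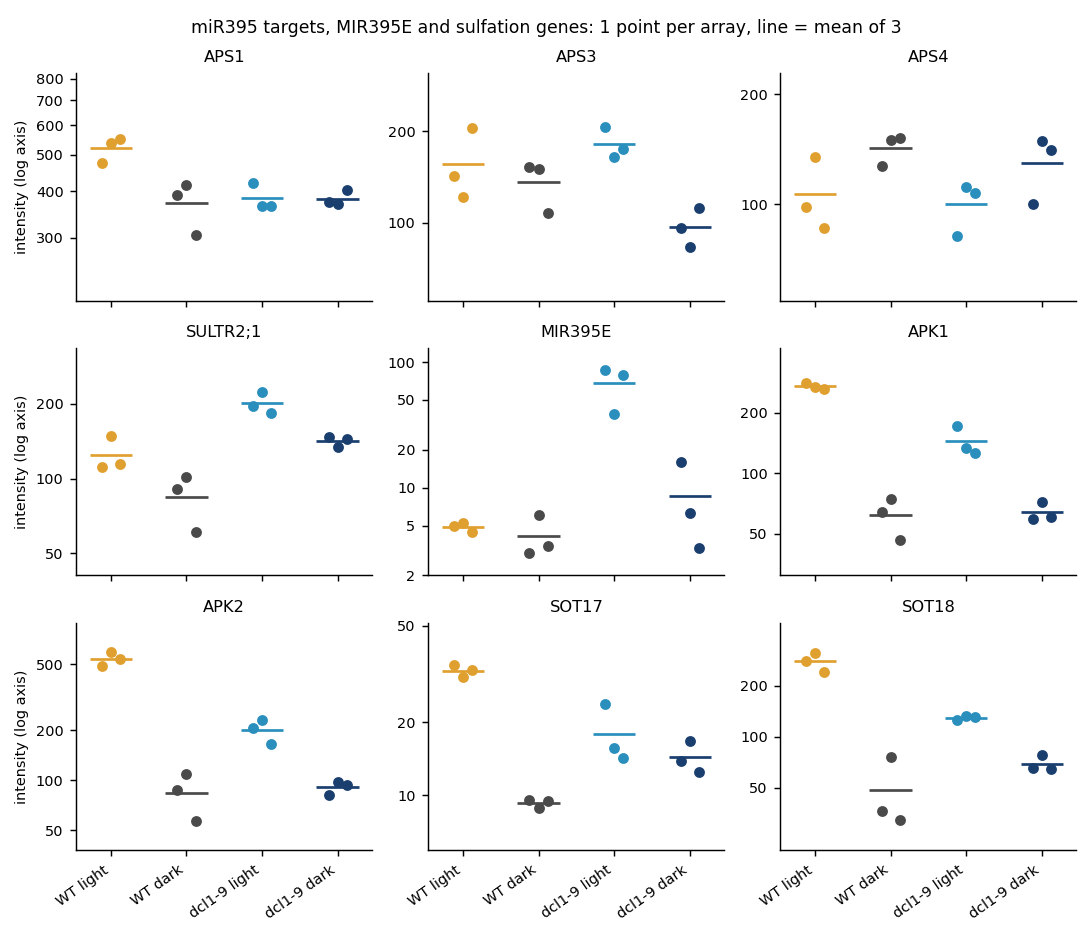
Intensity of the 4 miR395 targets, the *MIR395E* precursor, *APK1*, *APK2*, *SOT17* and *SOT18* in each array (vertical log axis, arbitrary units) by group, with 1 point per array and a line at the mean of 3. *MIR395E* is high in *dcl1–9* light alone, and *APK1*, *APK2*, *SOT17* and *SOT18* are highest in WT light.

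The array also carries the 6 MIR395 precursors, and *MIR395E* (AT1G69795) alone was called. Its intensity was 5.00, 5.20 and 4.46 in WT light, 3.00, 6.01 and 3.46 in WT dark, 86.4, 38.4 and 78.3 in *dcl1–9* light, and 16.1, 6.26 and 3.31 in *dcl1–9* dark. Outside *dcl1–9* light all arrays but 1 were at or under 6.26, and *dcl1–9* dark replicate 1 was at 16.1. The precursor was higher in *dcl1–9* in light (log2 difference 3.85, SE 0.47, adjusted p = 5.6e-04) and fell there in the dark (log2 difference -3.20, SE 0.47, adjusted p = 1.5e-04). Of all probe sets 5.92% and 12.9% were called in these directions. The response of the mutant minus that of WT was -2.90 (SE 0.66) and did not pass (adjusted p = 0.16). Whether its low arrays were above background was not assessed, so the size of the difference gives no exact fold. The other 5 precursors had group means under 7 and passed no test. Both calls were kept with any 1 array left out, but with 16 added the light difference before the shift went from 3.71 to 1.95 and the mutant fall from -3.20 to -1.75. In darkness the *MIR395E* arrays of the 2 genotypes overlapped. These probes read precursor RNA, not mature miR395.

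**Figure D5:**
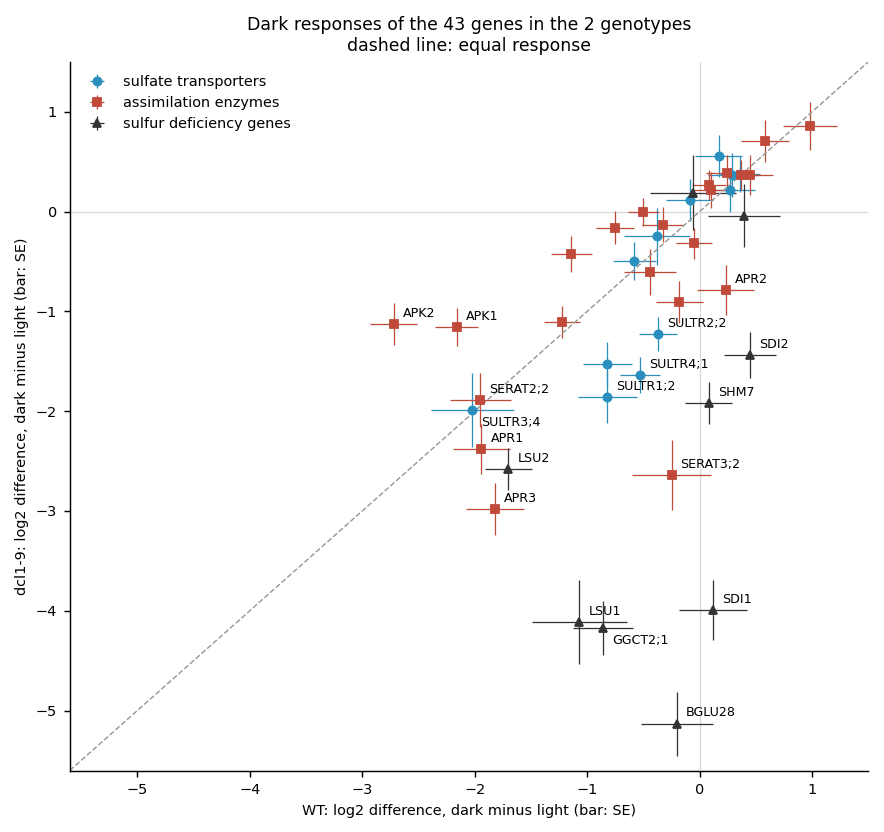
Dark minus light log2 difference in WT (horizontal) and in *dcl1–9* (vertical) for the 43 genes, with bars of 1 SE and a dashed line of equal response. Most of the sulfur deficiency genes and *SERAT3;2* lie far below the line, and *APK1* and *APK2* lie above it.

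When the dark response of *dcl1–9* was set against that of WT, no transporter or enzyme passed the test, beside 0.104% of all probe sets (29 of them, 0.0144% higher and 0.0898% lower), while 13 of the 34 had an unadjusted p under 0.05, beside 5.73% of all probe sets. The values ran from -2.40 for *SERAT3;2* to 1.60 for *APK2*, with a median of 0.04 beside 0.00 for all probe sets. After these the most negative were *APR3* at -1.16 (SE 0.37), *SULTR4;1* at -1.10 (SE 0.26), *SULTR1;2* at -1.05 (SE 0.37) and *APR2* at -1.02 (SE 0.36). The most positive after *APK2* and *APK1* were *APS2* at 0.70 (SE 0.25) and *SIR* at 0.59 (SE 0.24). A p above the threshold does not show that the genotypes responded alike.

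A list of 25 other sulfur genes was taken by name, with earlier results of these data known. It gave 4 higher and 3 lower in *dcl1–9* in light, beside 5.92% and 3.33% of all probe sets. In darkness it gave 2 higher and 1 lower, beside 4.45% and 3.02%. In the dark 4 rose and 11 fell in WT, beside 12.8% and 14.5% of all, and 6 rose and 9 fell in *dcl1–9*, beside 10.8% and 12.9%. None passed the test of the difference of responses, and 6 had an unadjusted p under 0.05, beside the 5.73% of all probe sets. *SLIM1* (AT1G73730), a transcription factor that governs the response to low sulfur, was higher in *dcl1–9* by 0.88 in light and 0.82 in darkness (adjusted p = 0.026 and 0.037). Its intensity was 41.2, 49.6 and 33.3 in WT light, 47.4, 49.7 and 34.4 in WT dark, 62.3, 70.9 and 72.2 in *dcl1–9* light, and 71.9, 71.7 and 66.9 in *dcl1–9* dark, with all mutant arrays above all WT arrays at both conditions. The light call was lost without WT light replicates 1 or 3 or *dcl1–9* light replicates 2 or 3 (adjusted p up to 0.11) and when only the compared groups were fitted. The call in darkness was lost without any 1 of 8 arrays, namely WT light replicate 1, WT dark replicates 1 and 3, *dcl1–9* light replicates 2 and 3 and all 3 *dcl1–9* dark replicates (adjusted p up to 0.15). Both were lost against a 1.2-fold change.

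Of the genes around glutathione in this list, *OXP1* (AT5G37830), *PCS1* (AT5G44070) and *GGCT2;2* (AT4G31290) were called higher in *dcl1–9* in light, and *GGCT2;3* (AT1G44790) and *GGT4* (AT4G29210) were not called between genotypes. *OXP1*, an oxoprolinase that recycles the product of gamma-glutamyl cyclotransferases, was higher in the mutant at 188 ± 14.7 against 88.7 ± 19.0 in light (log2 difference 1.24, SE 0.23, adjusted p = 0.011) and at 156 ± 24.0 against 69.3 ± 22.2 in darkness (log2 difference 1.34, SE 0.23, adjusted p = 0.0079). *PCS1*, phytochelatin synthase, was higher in light (log2 difference 1.16, SE 0.28, adjusted p = 0.035). *GGCT2;2*, a relative of the deficiency gene *GGCT2;1*, rose in the dark in WT (log2 difference 2.44, SE 0.26, adjusted p = 5.6e-06) and in *dcl1–9* (log2 difference 1.51, SE 0.26, adjusted p = 5.2e-04), opposite to the values of *GGCT2;1*, and it was higher in the mutant in light (log2 difference 1.10, SE 0.26, adjusted p = 0.033). *GGCT2;3*, of the same family, fell in the dark in WT and *dcl1–9* by 0.55 and 0.69 (adjusted p = 0.0075 and 0.0019), with a genotype difference of 0.15 (SE 0.14) in light. *GGT4* fell by 1.31 and 1.06 (adjusted p = 7.6e-05 and 6.0e-04), with a genotype difference of -0.31 (SE 0.18) in light (adjusted p = 0.13). All mutant light arrays were lower for *GGT4*, as for 19.4% of all probe sets. *GGT1* (AT4G39640), a gamma-glutamyl transpeptidase, rose in the dark in WT and *dcl1–9* by 1.67 and 1.24 (adjusted p = 5.4e-05 and 8.7e-04). It was not called between genotypes. In darkness it was 208 ± 28.3 in *dcl1–9* and 346 ± 38.6 in WT, with all mutant arrays lower, as for 19.2% of all probe sets. *CYSD2* (AT5G28020), a minor cysteine synthase isoform, rose in the dark in WT and *dcl1–9* by 1.65 and 1.75 (adjusted p = 1.2e-04 and 9.2e-05), and *CGS1* (AT3G01120), the entry enzyme of methionine synthesis, fell by 0.99 and 1.2 (adjusted p = 4.3e-05 and 1.0e-05). *CGS1* was also the 1 gene of this list lower in *dcl1–9* in darkness (log2 difference -0.34, SE 0.13, adjusted p = 0.045). That call was lost without any 1 of 8 arrays, namely WT light replicate 1, WT dark replicates 1 and 2, *dcl1–9* light replicates 2 and 3 and all 3 *dcl1–9* dark replicates (adjusted p up to 0.16), and with median centring, no intensity trend or the compared groups alone. The light call of *PCS1* was lost without WT light replicates 1 or 3 or any *dcl1–9* light replicate (adjusted p up to 0.14) and with no trend or the compared groups alone. The light call of *GGCT2;2* was lost without any WT light replicate or *dcl1–9* light replicates 1 or 3 (adjusted p up to 0.11) and with quantile normalization, no trend or the compared groups alone, and that of *OXP1* without WT light replicate 3 (adjusted p = 0.058). These 3 light calls, the darkness call of *CGS1* and the WT fall of *GGCT2;3* were also lost against a 1.2-fold change.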

How the data were processed

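Total RNA of 12 leaf samples was hybridized to Affymetrix Arabidopsis Gene 1.1 ST strips. The deposited values are linear intensities that the authors computed with dChip, with invariant-set normalization to an array of median intensity, a perfect-match model and a Brainarray custom definition, version 15, with 1 probe set per gene. The authors checked quality in Affymetrix Expression Console, version not given in the sources used here. Their table of comparisons, with weighted means, standard errors, fold-changes and bounds, was not used, and 0 columns of other samples were present.

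Values under 1 were set to 1 and taken to log2. A model of the 4 groups was fitted to all 12 arrays and 27827 probe sets with limma 3.58.1 and statmod 1.5.0 in R 4.3.3, with an intensity trend of the variances, 8 residual degrees of freedom and Benjamini-Hochberg adjustment at 0.05. The 5 contrasts were the dark response of each genotype, the genotype difference in light and in darkness, and the difference of the responses. The code was tested on simulated data. Precision is limited by 3 arrays per group. Figures were drawn with matplotlib 3.10.9. The 43 loci all matched RefSeq names (TAIR10.1 assembly). Genes and lists were chosen with earlier results of these data known. Every member is named. Values in every array are given for the miR395 targets, the deficiency genes and the 12 transporters or enzymes with the largest called difference, and the 4 largest called differences per contrast are given from the list of 25 other sulfur genes. Alternatives were an offset of 16, quantile normalization, centring on array medians, a minimum mean intensity of 20, no trend, a test against 1.2-fold, the compared groups alone, a replicate block and leaving out each array. Sequences were not analysed here.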

Additional observations from a re-analysis of the deposited data

How the results depend on the processing

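Of the tests of single transporters and enzymes over all alternatives, 3242 kept their direction and side of the threshold, 67 lost and 47 gained a call, and 0 called differences turned direction. Of the log2 differences of the deficiency genes, 877 moved by less than the spread between replicates and 14 by more, 13 of them with 16 added to the values. The number of transporters and enzymes called between genotypes in darkness was 5, and it was 2 against a 1.2-fold change and 8 with the replicate block. With each array left out it ranged from 2 to 6, with 2 without WT dark replicate 3, *dcl1–9* dark replicate 1 or *dcl1–9* dark replicate 2. For the difference of the dark responses the count was 0, and 1 with 16 added, with median centring and with the replicate block, each time *APK2* (adjusted p = 0.029, 0.049 and 0.013). Leaving out each array gave 0 to 1, with *APK2* without WT dark replicate 2 and *SERAT3;2* without *dcl1–9* light replicate 2. In the other contrasts leaving out an array gave 11 to 17 calls for darkness in WT, 13 to 17 in *dcl1–9* and 10 to 13 between genotypes in light. Against a 1.2-fold change the counts there were 10, 13 and 8. The arrays of the compared groups alone ended the calls of *SULTR2;1* and *SULTR4;1* for darkness in WT and of *SULTR2;1* and *APR2* in light. The cause of these changes was not tested. Over all probe sets, calls between genotypes went from 2573 to 555 in light and from 2077 to 449 in darkness against a 1.2-fold change, and in light to 1368 with the compared groups alone. Leaving out 1 array gave 775 to 2995 in light, 441 to 2518 in darkness and 8 to 39 for the difference of responses. For that difference, 29 calls became 66 with 16 added, 15 with no trend and 19 against a 1.2-fold change. In the dark contrasts 7612 calls became 4913 in WT and 6598 became 4110 in *dcl1–9* against a 1.2-fold change.

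The replicate numbers of the labels are shared by the groups, and the study calls the replicates independent without saying whether a number marks a shared batch or day. The deviations of same-numbered arrays correlated at 0.03 to 0.34, above 0.1 in 14 of 18 pairs. In 33 of 36 checks an array correlated best with its own number among the 3 arrays of another group. This sharing is seen in the data and is not stated in the design. With the replicate block the transporters and enzymes called were 17 and 19 for darkness in WT and *dcl1–9*, 15 and 8 between genotypes in light and darkness, and 1 for the difference of responses. The calls gained were *APS4* and *SERAT3;1* for darkness in WT, *SULTR2;1*, *SULTR3;1* and *APK3* in *dcl1–9*, *APS1*, *APS2* and *APK4* in light (adjusted p = 0.035, 0.035 and 0.041), *SULTR3;1*, *SIR* and *APK4* in darkness (adjusted p = 0.040, 0.040 and 0.019), and *APK2*. The block gave over all probe sets 5066 in light, 4338 in darkness and 77 for the difference. No detection calls were used, so how far low intensities lie above background was not assessed.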

Other observations

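The 10 genes outside the 43 whose log2 intensities over the 12 arrays followed the mean of the 9 deficiency genes most closely had Pearson correlations of 0.94 to 0.97. The correlation within groups was not computed. Among the 9 themselves the correlation with their mean was 0.80 to 0.99 for the 7 that were high in *dcl1–9* light, 0.16 for *LSU3* and -0.15 for *LSU4*. Each of the 9 is part of that mean, and they were chosen partly on the light contrast. High values here were therefore partly fixed in advance. The 10 were AT1G12030, AT5G40670, AT4G31330, AT1G75280, AT3G50280, AT1G51820, FRO1, AT3G05400, AT5G64320 and SRS4. FRO1, of the ferric reductase family, had a mean intensity of 181 ± 26.4 in *dcl1–9* light (SD, n = 3), against 21.3 ± 9.42 for *dcl1–9* dark, 14.6 ± 6.397 for WT light and 7.09 ± 0.290 for WT dark. AT1G12030 stood at 109 ± 12.5, 14.7 ± 0.271, 19.8 ± 2.68 and 16.9 ± 5.70 in the same order, and AT3G05400 at 184 ± 98.0, 28.7 ± 3.84, 11.4 ± 3.86 and 11.9 ± 2.60. AT5G40670 went from 220 ± 9.11 in WT light to 427 ± 60.7 in *dcl1–9* light.

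*AT1G26976*, chosen after its values were seen, lies between *MIR395B* and *MIR395C* in the genome and was the 13th of this order. Its WT arrays read 5.42, 6.20 and 5.52 in light and 5.25, 4.84 and 7.48 in darkness, and its mutant arrays 36.9, 14.9 and 16.6 and 6.48, 7.06 and 6.07, whereas the precursors on either side had group means under 7.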
